A study of Mus musculus with 12 samples.

Results

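The mitochondrially encoded genes were followed in the cardiac tissues of mice given cisplatin (CDDP), with and without STING. All genes whose symbol starts with mt- were taken, which gave 37 of the 55885 genes in the deposited table. They comprise 13 protein-coding genes, 2 ribosomal RNAs and 22 transfer RNAs. Expression was measured by RNA-seq of total RNA from 12 hearts, 3 in each of 4 groups. The mice were male, 8 weeks old and of the C57BL/6 strain in the labels (C57BL/6J in the study's methods). Wild type mice without cisplatin formed the Saline group (untreated in the sample labels), and wild type mice injected intraperitoneally with 6 mg/kg cisplatin on days 1, 8 and 15 formed the CDDP group. Mice labelled Tmem173-/-, the older symbol of the STING gene Sting1, formed the STING-/- and STING-/-+CDDP groups, without and with the same injections. Hearts were collected on day 22. STING was deleted in the whole animal, and the knockout and wild type mice came from different suppliers, so a difference between the genotypes cannot be told apart from one between the colonies.

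Values were TPM, a measure of transcript abundance that corrects the reads on a gene for its length and gives every heart the same total. A share of the total TPM is therefore an estimated share of transcripts and not of reads, and the number of reads behind a value is unknown. In order of the sample numbers, Sting1 TPM was 12.3, 6.59 and 6.50 in Saline hearts, 22.1, 5.62 and 8.81 in CDDP hearts, 3.82, 5.96 and 2.87 in STING-/- hearts, and 4.26, 4.67 and 3.37 in STING-/-+CDDP hearts. Sting1 was thus lower on average without STING but listed above 0 in all 12 hearts, with a log2 fold change of -0.85 (SE 0.40, limma adjusted p = 1) for STING-/- against Saline and of -1.18 (SE 0.40, limma adjusted p = 0.147) for STING-/-+CDDP against CDDP. Summed ventricular cardiomyocyte markers ranged from 36654 to 69219 TPM over the hearts, and all 10 were detected. Summed atrial markers ranged from 310 to 38939 TPM, with the highest value in Saline heart 2, and red blood cell markers from 42.0 to 9317 TPM, highest in the Saline group. Their part in the mitochondrial values was not tested. Fewer cardiomyocytes and less mitochondrial RNA per cell cannot be told apart in whole tissue.

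The mitochondrial genome is a small circle that is present in many copies per cell. It encodes core subunits of respiratory chain complexes I, III and IV and of ATP synthase (complex V), along with the ribosomal and transfer RNAs needed to translate them. Both strands are transcribed as long polycistronic RNAs, which are cut mainly at the transfer RNAs into messenger and ribosomal RNAs. Mitochondrial messenger RNAs are abundant in the heart, which depends on oxidative phosphorylation. Mitochondrial DNA that leaks into the cytosol is a known ligand of cGAS, the sensor upstream of STING. On GRCm38 the members run from base 1 to base 15422 of chrM. Of the 37 genes, 28 lie on the + strand of the reference and 9 on the - strand, the latter being mt-Nd6 and 8 transfer RNAs. Pieces of the mitochondrial genome have also been inserted into nuclear chromosomes, and a recent insertion can be nearly identical to its source.

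One such insertion bears on how the mitochondrial values of this table can be read. GENCODE M21 annotates 7 unprocessed pseudogenes in a single block of 4663 bases at chr1:24611535-24616197 on the - strand, and each matched a member over at least 200 bases at an identity of at least 99%. Gm29216 matched 483 of the 1545 bases of mt-Co1 at 99.793%, and Gm28438 matched 345 of the 348 bases of mt-Nd3 at 99.71%. Gm28661 (mt-Co2), Gm10925 (mt-Atp6), Gm28437 (mt-Co3), Gm10222 (mt-Nd4l) and Gm28439 (the first 876 of 1378 bases of mt-Nd4) matched at 100%. Over the 4140 aligned bases there were 2 mismatches, A1066T between mt-Co1 and Gm29216 and T3C between mt-Nd3 and Gm28438, with positions counted from the first base of the mitochondrial gene, whose base is written first. The sequences below, from the GENCODE M21 transcripts (GRCm38), show how little separates each mitochondrial gene from its nuclear copy. In the first 2 pairs the capital is the mismatched base, and in the next 2 the capitals are the bases by which the mitochondrial gene runs on past the 3′ end of the copy, a stop codon.
mt-Co1 (chrM:6390-6408, +): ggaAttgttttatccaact
Gm29216 (chr1:24616170-24616188, -): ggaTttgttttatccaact
mt-Nd3 (chrM:9459-9476, +): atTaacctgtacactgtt
Gm28438 (chr1:24613102-24613119, -): atCaacctgtacactgtt
mt-Co2 (chrM:7664-7696, +): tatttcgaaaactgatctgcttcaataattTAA
Gm28661 (chr1:24614885-24614914, -): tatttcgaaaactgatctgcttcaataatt
mt-Atp6 (chrM:8575-8607, +): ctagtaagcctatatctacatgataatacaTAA
Gm10925 (chr1:24613974-24614003, -): ctagtaagcctatatctacatgataataca

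Reads from these 7 members and from their copies therefore cannot be told apart over nearly the whole shared length. The 7 copies took 12.4% to 18.0% of the total TPM of a heart. Gm28661 had a mean of 45895 TPM over the 12 hearts, against 1965 TPM for mt-Co2 itself. Gm28438 had a mean of 26557 TPM against 4951 TPM for mt-Nd3, and Gm10222 had 25766 TPM against 602 TPM for mt-Nd4l. The annotated copies held the larger part of these pairs in every heart.

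The copy's share differed widely between pairs and by fewer points between hearts. A few points can still be a large part of a small member, and mt-Nd4l as listed ran from 217 to 1152 TPM. The copy held 93.8% to 97.0% of the TPM of the mt-Co2 pair, 96.2% to 99.2% of the mt-Nd4l pair, and 78.4% to 87.8% of the mt-Nd3 pair. It held 50.1% to 51.2% of the mt-Co3 pair and 32.2% to 41.8% of the mt-Co1 pair. For mt-Nd4 the copy held only 0.216% to 0.571%, and for mt-Atp6 it held 100%, since mt-Atp6 was listed at 0 in all 12 hearts. Pairs with 100% identity thus lay at both ends of the range. For the members whose copy held a large part of the pair, the level in the table is not a level of the transcript.

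**Figure D1:**
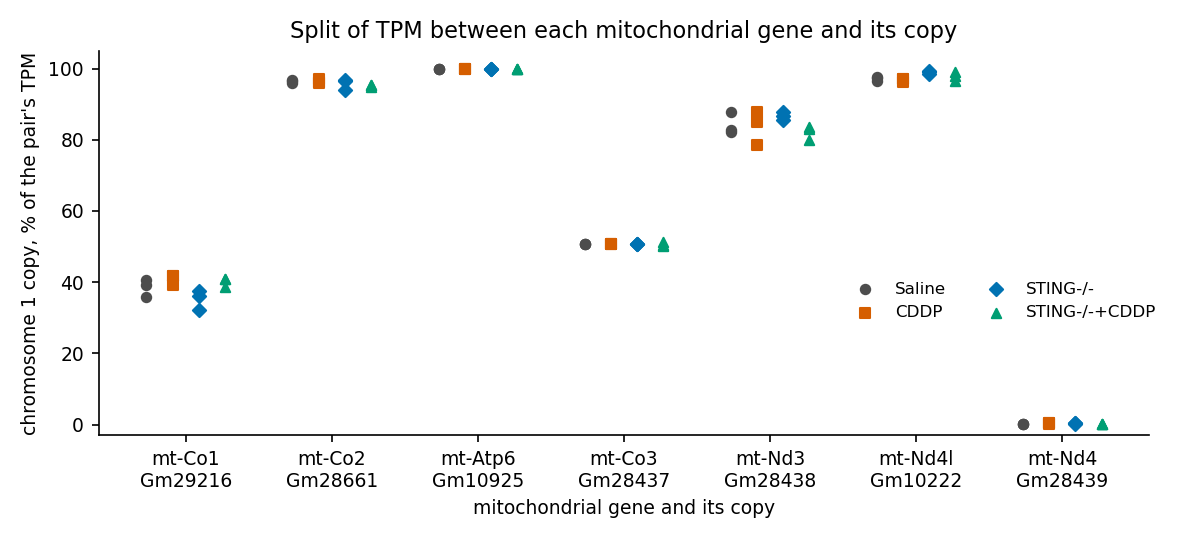
Share of each pair's TPM assigned to the chromosome 1 copy (y axis, %) for the 7 mitochondrial genes and their copies (x axis), with 1 point per heart and colours and shapes for the 4 groups. The copy's share runs from 0.216% to 0.571% for mt-Nd4 to 100% for mt-Atp6. Within a pair the hearts span less, as with 78.4% to 87.8% for mt-Nd3.

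For each of the 7 pairs, the copy was added to the member, weighted by annotated length, for a level less dependent on this split. Whether the TPM were computed from these lengths is not given in the sources used here. For pairs of unequal length, such as mt-Co1 and Gm29216, the sum may therefore still depend on the split. On this scale mt-Co3 had a mean of 51496 TPM (range 37745 to 61479 over 12 hearts), mt-Co2 of 47659 TPM (39019 to 57060) and mt-Co1 of 39209 TPM (31201 to 50639). These 3 subunits of complex IV, cytochrome c oxidase, were thus closer to each other than the 32599, 1965 and 25416 TPM listed for the members alone. The summed level of mt-Nd3 had a mean of 31279 TPM, that of mt-Nd4l 26108 TPM, that of mt-Atp6 14527 TPM and that of mt-Nd4 11794 TPM. The spread between hearts also narrowed for the genes most affected. The coefficient of variation over the 12 hearts was 45.8% for mt-Nd4l alone and 16.2% with its copy, 29.5% and 11.7% for mt-Co2, and 24.4% and 18.1% for mt-Nd3.

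Among the members as listed, 13 were above 0 in every heart and 24 were at 0 in every heart. The 24 were mt-Atp6, mt-Nd6 and all 22 transfer RNAs. The transfer RNAs are 59 to 75 bases long, and of 1010 other genes in the table of up to 75 bases only 3 were above 0 in any heart, against 27721 of all 55885 genes. No level of mitochondrial transfer RNA can be read from these data. mt-Nd6, the complex I subunit encoded on the opposite strand, shares 14 bases with mt-Nd5 but has no copy in the chromosome 1 block, and why it is listed at 0 was not tested.

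The 37 genes together took 22.3%, 19.5% and 25.0% of the total TPM in the Saline hearts. The share was 23.3%, 21.3% and 18.8% in CDDP hearts, 26.1%, 21.7% and 24.0% in STING-/- hearts, and 23.9%, 23.6% and 27.6% in STING-/-+CDDP hearts. Group means were 22.3% ± 2.76, 21.1% ± 2.26, 24.0% ± 2.18 and 25.1% ± 2.21 (SD, n = 3 each). The STING-/-+CDDP hearts all lay above the CDDP hearts, and the other neighbouring groups overlapped. Counted with the 7 copies the share was 31.2% to 45.6% of the total TPM, with group means of 38.1% ± 4.97, 36.2% ± 4.89, 40.3% ± 3.43 and 41.7% ± 3.51 in the same order (SD, n = 3 each). On that count STING-/-+CDDP and CDDP hearts overlapped as well.

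**Figure D2:**
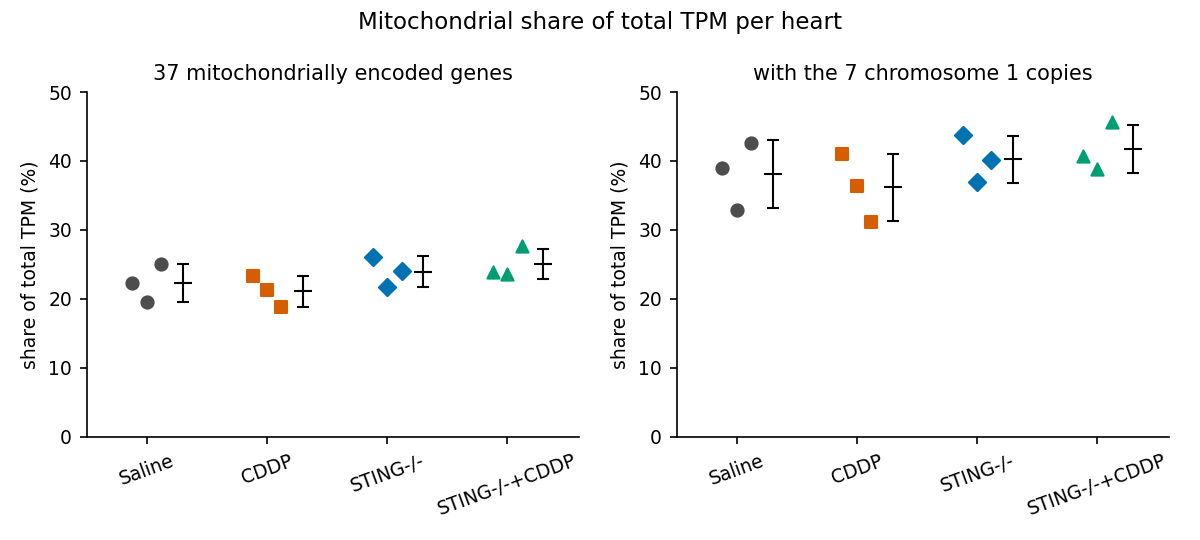
Share of total TPM (y axis, %) taken by the 37 mitochondrially encoded genes alone (left) and together with the 7 chromosome 1 copies (right), with 1 point per heart and, beside the points, the group mean and SD. The 3 STING-/-+CDDP hearts (23.6% to 27.6%) lie above the 3 CDDP hearts (18.8% to 23.3%) on the left, and the same groups overlap on the right.

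No difference in the mitochondrial share passed a test. Cisplatin within genotype gave a mean difference of -0.0266 percentage points (exact permutation test within genotype, two-sided p = 0.985, adjusted 0.985), made of -1.15 points in wild type and 1.10 points in STING-/- hearts. The knockout within treatment gave 2.82 points (exact permutation test within treatment, two-sided p = 0.075, adjusted 0.38), made of 1.69 points without and 3.94 points with cisplatin. The former was 0.292 points without Saline heart 2, 0.617 without STING-/- heart 1, 3.05 without Saline heart 3 and 2.80 without STING-/- heart 2. Adjustment was over 12 tests of shares, and 400 arrangements allow a smallest p of 0.005. For STING-/-+CDDP against CDDP alone, the exact permutation test gave p = 0.10, the smallest that 3 hearts against 3 allow. For CDDP against Saline the exact permutation test gave p = 0.70, for STING-/- against Saline p = 0.50 and for STING-/-+CDDP against STING-/- p = 0.70.

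ATP synthase was represented by mt-Atp8, a short peripheral stalk subunit, since mt-Atp6, the channel subunit through which protons pass, was listed at 0. mt-Atp8 was the highest member as listed. Its TPM was 66126, 66949 and 79302 in Saline hearts, 87458, 64629 and 64542 in CDDP hearts, 86212, 73107 and 80262 in STING-/- hearts, and 70752, 70435 and 79893 in STING-/-+CDDP hearts. It took 7.41% of the total TPM on average (6.45% to 8.75%) and 32.2% of the mitochondrial TPM (28.9% to 37.6%). CDDP heart 1 was the highest and the other 2 CDDP hearts the lowest of all 12, so the groups overlapped.

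The 2 ATP synthase genes lie on the same messenger RNA and overlap by 43 bases, shown in capitals with the flanking bases that belong to mt-Atp8 before and to mt-Atp6 after them.
mt-Atp8/mt-Atp6 (chrM:7912-7984, +): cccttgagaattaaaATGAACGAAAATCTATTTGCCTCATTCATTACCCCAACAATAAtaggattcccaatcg

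The overlap starts with the ATG of mt-Atp6 and ends with the TAA of mt-Atp8. As listed, mt-Atp8 was 4.46 to 5.70 times the summed level of mt-Atp6 and its copy. The ratio was 5.11, 5.40 and 5.21 in Saline hearts, 4.52, 4.69 and 4.85 in CDDP hearts, 5.36, 5.59 and 5.70 in STING-/- hearts, and 5.38, 5.42 and 4.46 in STING-/-+CDDP hearts. All 3 CDDP hearts were below all Saline hearts in this ratio, and STING-/-+CDDP hearts overlapped with each of the other groups. mt-Atp8 is 204 bases long, the shortest protein-coding member. It has no annotated copy in the chromosome 1 block, although 233 bases lie there between the copies of mt-Co2 and mt-Atp6, as many as separate the matching stretches on chrM. The part of its short length in this ratio and in the rank of mt-Atp8 was not tested.

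Complex I, NADH dehydrogenase, has 7 mitochondrial subunits. mt-Nd5, one of its large proton-pumping subunits, was the second highest member at 46213, 35707 and 48130 TPM in Saline, 41275, 44861 and 36461 in CDDP, 51287, 41741 and 47845 in STING-/-, and 49114, 48397 and 57686 in STING-/-+CDDP hearts. It took 4.57% of the total TPM on average and 19.8% of the mitochondrial TPM (17.7% to 21.1%), and the STING-/-+CDDP hearts were above all CDDP hearts. mt-Nd1, at the joint of the membrane and peripheral arms, stood at 18655, 14732 and 19720 TPM in Saline, 16697, 16434 and 13862 in CDDP, 22104, 18204 and 21749 in STING-/-, and 20152, 18490 and 23883 in STING-/-+CDDP hearts. It took 1.87% of the total and 8.07% of the mitochondrial TPM on average. For mt-Nd1 the STING-/-+CDDP hearts were above all 3 CDDP hearts too, a separation that 7.12% of all genes showed.

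mt-Nd4, a further proton-pumping subunit, stood at 12055, 9686 and 11950 TPM in Saline, 13243, 10819 and 9529 in CDDP, 13926, 10624 and 13034 in STING-/-, and 11114, 10661 and 14599 in STING-/-+CDDP hearts. It took 1.18% of the total and 5.09% of the mitochondrial TPM on average, and no pair of groups was separated. mt-Nd4l, which overlaps the start of mt-Nd4 by 7 bases, was the lowest member above 0, at 0.0602% of the total and 0.265% of the mitochondrial TPM. Its TPM was 725, 607 and 957 in Saline, 1152, 691 and 604 in CDDP, 324, 217 and 494 in STING-/-, and 255, 716 and 486 in STING-/-+CDDP hearts. The STING-/- hearts were below all Saline hearts. With the copy Gm10222 added, however, the level of mt-Nd4l was 26190 ± 2983 TPM in Saline and 30480 ± 3678 TPM in STING-/- hearts (SD, n = 3 each), with the order of the means turned.

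mt-Nd3, a small subunit of the same complex, stood at 4155, 4558 and 6738 TPM in Saline, 5104, 3017 and 4256 in CDDP, 5311, 3652 and 3989 in STING-/-, and 6130, 6680 and 5827 in STING-/-+CDDP hearts. It took 0.495% of the total and 2.14% of the mitochondrial TPM on average. As listed, the STING-/-+CDDP hearts were above the CDDP and the STING-/- hearts without overlap. With the copy Gm28438 added, the level of mt-Nd3 was 36998, 33128 and 34060 TPM in STING-/-+CDDP hearts, and CDDP heart 1 at 33532 TPM and STING-/- heart 1 at 36442 TPM lay within that range, so neither separation held. mt-Nd2, a proton-pumping subunit with no copy in the block, stood at 6606, 4738 and 6374 TPM in Saline, 4268, 3341 and 3216 in CDDP, 8239, 6188 and 7214 in STING-/-, and 4882, 3647 and 7292 in STING-/-+CDDP hearts. It took 0.550% of the total and 2.36% of the mitochondrial TPM on average. All 3 CDDP hearts were below all Saline hearts, while STING-/-+CDDP heart 3 lay within the range of the STING-/- hearts.

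Complex III, the cytochrome bc1 complex, has a single mitochondrial subunit, mt-Cytb. Its TPM was 3448, 2543 and 3378 in Saline, 6129, 3016 and 2714 in CDDP, 4540, 3499 and 4305 in STING-/-, and 3406, 3128 and 4161 in STING-/-+CDDP hearts. It took 0.369% of the total and 1.59% of the mitochondrial TPM on average (1.31% to 2.63%). CDDP heart 1 stood above all other hearts, and the STING-/- hearts were above the Saline hearts.

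Complex IV is the terminal oxidase, with mt-Co1 carrying its catalytic centre, mt-Co2 the copper site that takes electrons from cytochrome c, and mt-Co3 stabilising the core. mt-Co1 stood at 33406, 28338 and 34622 TPM in Saline, 25386, 33175 and 27010 in CDDP, 33182, 30431 and 32463 in STING-/-, and 34286, 37376 and 41519 in STING-/-+CDDP hearts. It took 3.26% of the total and 14.1% of the mitochondrial TPM on average, and STING-/-+CDDP hearts were above all CDDP and all STING-/- hearts. mt-Co3 stood at 25860, 21461 and 30380 TPM in Saline, 25349, 24563 and 18578 in CDDP, 26708, 23961 and 22192 in STING-/-, and 28764, 27785 and 29390 in STING-/-+CDDP hearts. It took 2.54% of the total and 11% of the mitochondrial TPM on average, with the same separation as mt-Co1. mt-Co2, with the larger part of its pair in Gm28661, was listed at only 1556, 1632 and 1818 TPM in Saline, 2328, 1322 and 1463 in CDDP, 3295, 1395 and 1839 in STING-/-, and 2416, 2012 and 2508 in STING-/-+CDDP hearts. It took 0.197% of the total and 0.842% of the mitochondrial TPM, and the CDDP hearts overlapped with every other group.

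The ribosomal RNAs form the 2 subunits of the mitochondrial ribosome. mt-Rnr1, the 12S RNA, stood at 2270, 1600 and 3072 TPM in Saline, 1963, 3238 and 2401 in CDDP, 2469, 1877 and 1931 in STING-/-, and 3702, 3150 and 4197 in STING-/-+CDDP hearts. mt-Rnr2, the 16S RNA, stood at 2416, 2091 and 3349 TPM in Saline, 2480, 3702 and 3148 in CDDP, 3447, 2529 and 2887 in STING-/-, and 4264, 3866 and 4566 in STING-/-+CDDP hearts. For both RNAs all STING-/-+CDDP hearts were above all STING-/- hearts. They took 0.266% and 0.323% of the total and 1.14% and 1.39% of the mitochondrial TPM on average, less than mt-Nd1, the gene that follows them on the same primary transcript. Their sum was 0.222 to 0.422 times mt-Nd1, on a scale already corrected for length. Whether ribosomal or poly(A)-lacking RNA was depleted from the libraries is not given in the sources used here.

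**Figure D3:**
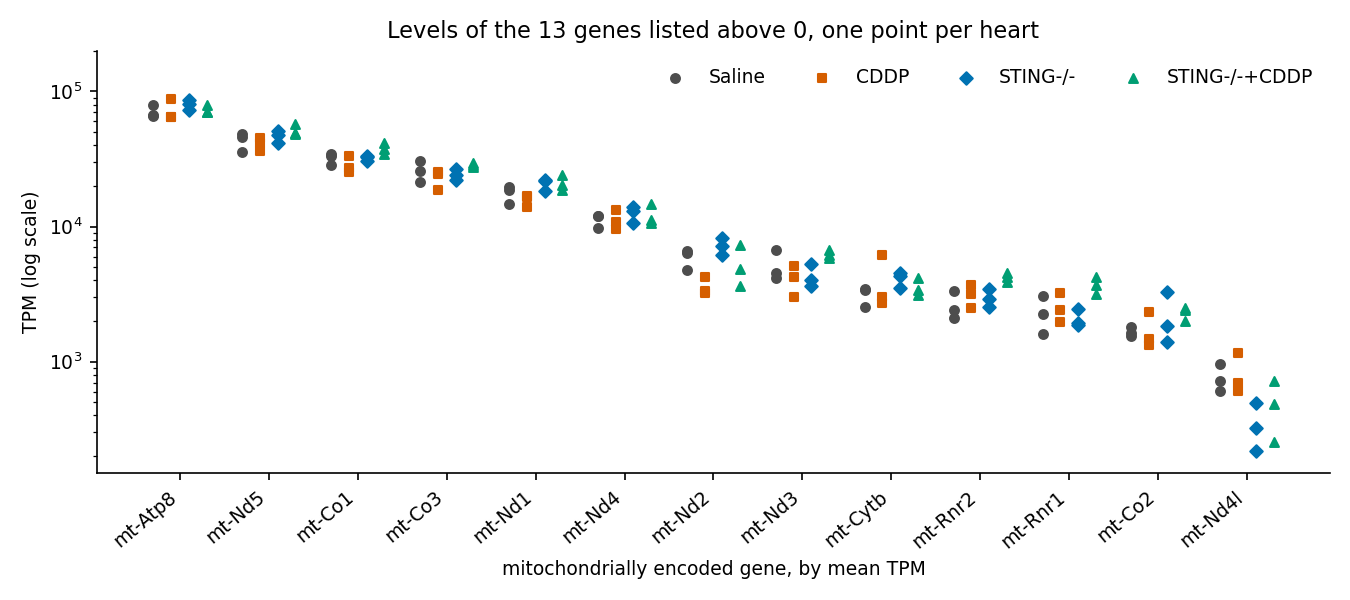
TPM on a log axis (y axis) of the 13 mitochondrially encoded genes listed above 0 (x axis, ordered by mean TPM), with 1 point per heart and colours and shapes for the 4 groups. Levels run from mt-Atp8 (64542 to 87458 TPM) to mt-Nd4l (217 to 1152 TPM), a span wider than any difference between groups.

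By complex, mt-Nd genes made up 37.7% of the mitochondrial TPM on average over the 12 hearts (35.1% to 39.8%), ATP synthase 32.2% (28.9% to 37.6%), complex IV 26.0% (22.8% to 28.4%), ribosomal RNA 2.54% (1.90% to 3.33%) and complex III 1.59%. Counting the copies moved complex IV to 39.1% and ATP synthase to 22.8% of the joint TPM. The order of the complexes thus depends on whether the copies are counted. Here the TPM of each copy was added in full, without the weighting by length used for the summed levels. Gm29216, at 492 bases, thus counted in full beside mt-Co1, at 1545 bases. The ribosomal RNA share was 2.10%, 1.90% and 2.57% in Saline, 1.91%, 3.26% and 2.95% in CDDP, 2.27%, 2.03% and 2.01% in STING-/-, and 3.33%, 2.97% and 3.18% in STING-/-+CDDP hearts. It was higher in all 3 STING-/-+CDDP hearts than in any STING-/- heart, and CDDP heart 1 lay among the Saline hearts.

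Cisplatin within genotype gave a difference of 0.789 percentage points in the ribosomal RNA share (exact permutation test within genotype, two-sided p = 0.015), which was 0.18 after adjustment over the 12 tests. The other tests of shares within the mitochondrial total did not pass either. The share of complex I differed by 1.51 points for the knockout within treatment (exact permutation test, p = 0.095, adjusted 0.38) and by -0.698 points for cisplatin within genotype (exact permutation test, p = 0.41, adjusted 0.863). The copies were then counted in, unweighted by length, an alternative added after the values were seen. The cisplatin difference became -1.98 points (exact permutation test, unadjusted p = 0.01) and the knockout difference 1.44 points (exact permutation test, unadjusted p = 0.04). For complexes III, IV and V unadjusted exact permutation p ranged from 0.325 to 0.98 over both comparisons.

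mt-Nd2 was looked at further within the mitochondrial total, a choice made after its values were seen and given as a description. mt-Nd2 took 2.96%, 2.43% and 2.55% of the mitochondrial TPM in Saline and 1.83%, 1.57% and 1.71% in CDDP hearts. It took 3.16%, 2.85% and 3.003% in STING-/- and 2.04%, 1.54% and 2.64% in STING-/-+CDDP hearts. Relative to mt-Nd1, its neighbour upstream on the same strand, mt-Nd2 was 0.354, 0.322 and 0.323 in Saline, 0.256, 0.203 and 0.232 in CDDP, 0.373, 0.340 and 0.332 in STING-/-, and 0.242, 0.197 and 0.305 in STING-/-+CDDP hearts. All 6 hearts given cisplatin were below all 6 hearts without it in that ratio. The share of mt-Nd2 itself overlapped through STING-/-+CDDP heart 3.

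**Figure D4:**
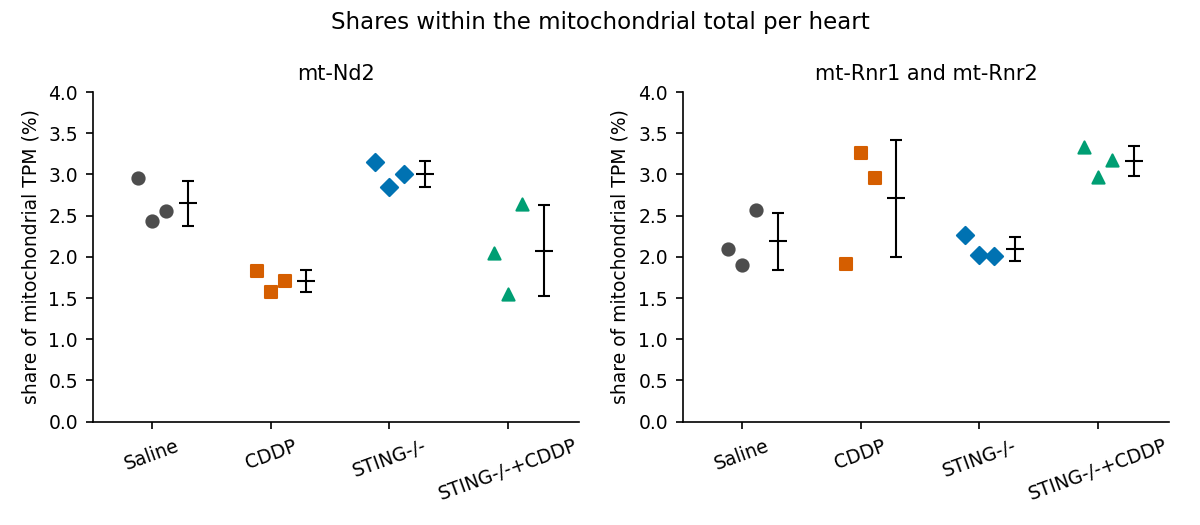
Share of the mitochondrial TPM (y axis, %) taken by mt-Nd2 (left) and by mt-Rnr1 and mt-Rnr2 together (right), with 1 point per heart and, beside the points, the group mean and SD. mt-Nd2 took 1.57% to 1.83% in CDDP and 2.43% to 2.96% in Saline hearts, and the ribosomal RNAs 2.97% to 3.33% in STING-/-+CDDP and 2.01% to 2.27% in STING-/- hearts.

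The first comparison of single genes, CDDP against Saline, addresses what cisplatin did in wild type hearts. The median log2 fold change was -0.01 over the 13 members tested, beside -0.00 over all 13815 genes tested, and lay between -0.14 and 0.08 with any 1 heart left out. A gene was tested when its TPM reached 1 in 3 or more hearts, which the other 24 members, at 0 throughout, did not. Of the 13, 0 passed an adjusted p of 0.05 (limma on log2(TPM + 1), Benjamini-Hochberg over all 13815 genes), where 18.9% of all genes tested passed. At an unadjusted p under 0.05 there was 1 member, where 33.9% of all genes lay.

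That member was mt-Nd2, with a log2 fold change of -0.71 (SE 0.23, limma adjusted p = 0.0535). It was also the only member whose CDDP and Saline hearts did not overlap, a separation that 17.1% of all genes showed downwards and 14.9% upwards. With 1 heart left out of the model it passed in 4 of 12 cases, with a limma adjusted p of 0.0337 without Saline heart 2, 0.04997 without CDDP heart 1, 0.0337 without STING-/-+CDDP heart 2 and 0.0248 without STING-/-+CDDP heart 3. In the other 8 cases the limma adjusted p was 0.0627 to 0.165, and after scaling by the median of ratios it was 0.16 (unadjusted 0.0725). Its log2 fold change lay between -0.86 and -0.62 with any 1 heart left out. The other 12 members lay between -0.32 for mt-Nd3 and 0.26 for mt-Rnr2, with 5 of the 13 above 0 and 8 below, where 49.8% of all genes were above 0.

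The comparison of STING-/- with Saline asks what the loss of STING did without cisplatin. The median over the 13 members was 0.16, beside 0.00 over all genes, with 9 members above 0 and 4 below, where 50.3% of all genes were above 0. This median was 0.04 without Saline heart 2 and 0.06 without STING-/- heart 1, each with 7 members above 0, 0.24 without STING-/- heart 2, and 0.04 after quantile normalization. By limma 0 of 13 passed the adjusted threshold, where 0.0724% of all genes did, and 1 had an unadjusted p under 0.05, where 3.69% of all genes lay. It was mt-Nd4l at -1.20 (SE 0.39, limma adjusted p = 0.967), the gene with the largest spread. Summed with Gm10222 its log2 fold change was 0.22 with a limma adjusted p of 1.00, so the direction rested on the split between gene and copy. Groups did not overlap for mt-Cytb, which was higher, and for mt-Nd4l, which was lower, where 2.76% of all genes were separated upwards and 4.88% downwards.

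STING-/-+CDDP against CDDP asks how the hearts of treated mice differed by genotype, and the median of the members lay farther from 0 here than in the other 3 comparisons of groups. The median log2 fold change was 0.41, beside -0.09 over all genes, and 11 of the 13 members were above 0, where 39.6% of all genes were. By limma 0 of 13 passed the adjusted threshold, where 1.22% of all genes did, while 7 members had an unadjusted p under 0.05, where 19.8% of all genes lay. That number was 8 after scaling to the nuclear total and without Saline heart 2, STING-/- heart 1 or STING-/- heart 3. It was 1 after scaling by the median of ratios, after quantile normalization and without the filter on low values. It was 4 with eBayes without trend and with arrayWeights, 2 without STING-/-+CDDP heart 3, 3 without CDDP heart 3 and 4 without STING-/-+CDDP heart 1. As fitted on all hearts these were mt-Co1 (0.41, SE 0.13, limma adjusted p = 0.118), mt-Nd1 (0.41, SE 0.14), mt-Nd3 (0.62, SE 0.22), mt-Nd5 (0.34, SE 0.14), mt-Rnr2 (0.46, SE 0.19), mt-Rnr1 (0.56, SE 0.24) and mt-Co3 (0.34, SE 0.15), with limma adjusted p from 0.118 to 0.236. For 6 of them, all but mt-Rnr1, STING-/-+CDDP and CDDP hearts did not overlap, where 7.12% of all genes were separated upwards and 15.6% downwards, although mt-Nd3 overlapped once summed with its copy. mt-Nd2 had a log2 fold change of 0.50 (SE 0.23, limma adjusted p = 0.258).

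The members share one scale, so their displacement is not 13 separate observations, and it follows the mitochondrial share of the total TPM given above. Without CDDP heart 2, mt-Co1 had a log2 fold change of 0.52 with a limma adjusted p of 0.0462. The summed ventricular cardiomyocyte markers ranged from 36654 to 53659 TPM in CDDP and from 49526 to 59000 TPM in STING-/-+CDDP hearts, and their part in this displacement was not tested. mt-Nd4l, as listed, stood apart from the other members at -0.81 (SE 0.39, limma adjusted p = 0.277). Summed with its copy it had -0.12 (SE 0.16, limma adjusted p = 0.71), so its distance from the others rested on the split. Scaling by the median of ratios, which moved the median of all genes from -0.09 to 0.00, gave a median of 0.53 for the members and quantile normalization one of 0.13, beside 0.01 over all genes, both again with 0 of 13 called.

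Within the knockout, STING-/-+CDDP against STING-/- shows the same treatment without STING. The median over the 13 members was 0.18, beside -0.11 over all genes, with 9 members above 0, where 35.2% of all genes were. This median was 0.06 without STING-/- heart 2, with 7 members above 0, and 0.11 without STING-/-+CDDP heart 3. It was 0.08 after quantile normalization, 0.07 with arrayWeights, 0.30 after scaling by the median of ratios and 0.01 over the 14 genes tested once members and copies were summed. By limma 0 of 13 passed, where 0.934% of all genes did, and 3 had an unadjusted p under 0.05, where 13.5% of all genes lay. They were mt-Rnr1 (0.82, SE 0.24, limma adjusted p = 0.147), mt-Rnr2 (0.53, SE 0.19, limma adjusted p = 0.255) and mt-Nd3 (0.54, SE 0.22, limma adjusted p = 0.313). Summed with its copy, mt-Nd3 had 0.13 (SE 0.19, limma adjusted p = 0.817), so its value rested on the split. Together with mt-Co1 (0.23, SE 0.13, limma adjusted p = 0.455) and mt-Co3 these were, as listed, the 5 members higher in STING-/-+CDDP hearts without overlap, where 7.28% of all genes were, beside 16.9% lower. mt-Nd2 had -0.50 (SE 0.23, limma adjusted p = 0.374), beside the -0.71 it had for CDDP against Saline, and these 2 comparisons share no hearts.

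**Figure D5:**
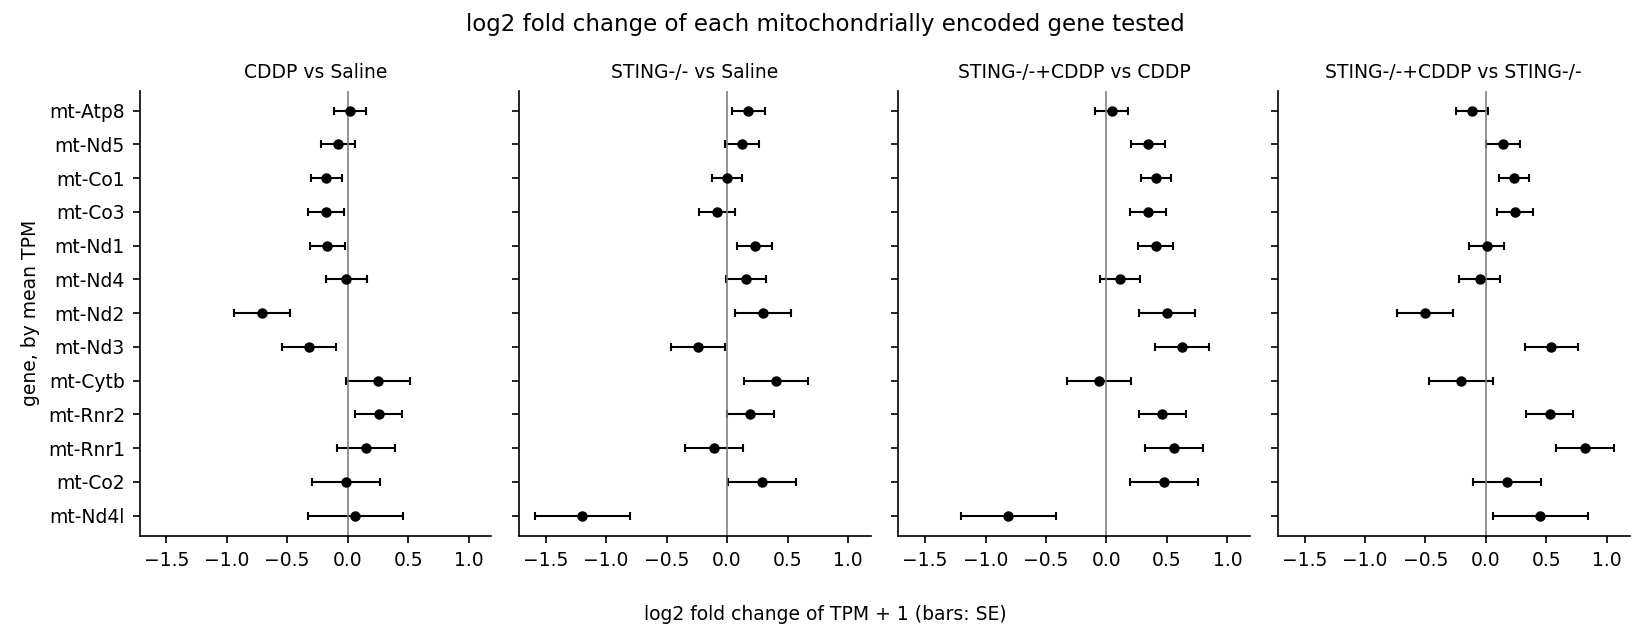
log2 fold change of TPM + 1 (x axis, bars are SE from the limma model) of the 13 mitochondrially encoded genes tested (y axis, ordered by mean TPM) in the 4 comparisons between groups. In STING-/-+CDDP against CDDP 11 of 13 genes lie above 0, and in CDDP against Saline mt-Nd2 at -0.71 lies farthest from 0.

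Whether cisplatin acted differently in the 2 genotypes was tested directly by the interaction of the limma model. By limma 0 of 13 members passed, where 0.00724% of all genes did, and 2 had an unadjusted p under 0.05, where 11.7% of all genes lay. These were mt-Nd3 at 0.86 (SE 0.31, limma adjusted p = 0.366) and mt-Co1 at 0.41 (SE 0.18, limma adjusted p = 0.406). Summed with its copy, mt-Nd3 had 0.48 (SE 0.27, limma adjusted p = 0.518) and an unadjusted p of 0.109 by limma. mt-Rnr1 had 0.67 (SE 0.34, limma adjusted p = 0.472). The number under an unadjusted 0.05 was 0 after quantile normalization, 1 after scaling by the median of ratios and 4 without Saline heart 2. The median over the members was 0.22, beside -0.10 over all genes. It was 0.10 without STING-/- heart 2 and 0.14 without Saline heart 3, CDDP heart 3 or STING-/-+CDDP heart 3, and it was 0.38 without STING-/- heart 1, 0.36 without Saline heart 2, 0.33 without CDDP heart 1 and 0.34 after scaling by the median of ratios. Of the members, 10 lay above 0 and 3 below, where 40.2% of all genes were above 0.

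The copies on chromosome 1 had 0 calls in the 5 contrasts, for the 6 of the 7 that were on the list of nuclear copies. Of all genes, 18.9% passed for CDDP against Saline and 0.00724% to 1.22% in the other 4 contrasts. Gm10222 was added from its sequence after the values were seen and is not among these 6. Their median log2 fold change was -0.02 for CDDP against Saline and 0.18 for STING-/-+CDDP against CDDP. With each member and its copy summed, 14 genes could be tested, mt-Atp6 now among them. By limma 0 of 14 passed in any of the 5 contrasts, where again 18.9% of all genes passed for CDDP against Saline and 0.00724% to 1.22% in the others. For STING-/-+CDDP against CDDP the unadjusted p stayed under 0.05 for the same 7 members, with mt-Nd3 at a log2 fold change of 0.46 (SE 0.19, limma adjusted p = 0.221). When scaled in addition to all other genes, it was under 0.05 for 4 of the 14 genes. On that scale all 14 lay above 0, with a median of 0.47, beside 0.01 over all genes. Other transcripts that resemble mitochondrial genes were low. Of 11 further genes with a match of at least 90%, the highest was Gm13340 at up to 6.87 TPM.

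Nuclear genes on a list for mitochondrial transcription and RNA processing passed for CDDP against Saline about as often as all genes did. Of 45 such genes, 44 were tested, of which 3 were higher and 6 lower by limma. This was 20.5% of those tested, beside 18.9% of all genes (8.52% higher and 10.4% lower). Nrf1, a transcription factor for many nuclear genes of mitochondria, rose by 0.68 on the log2 scale (SE 0.21, limma adjusted p = 0.0438). Hsd17b10, a subunit of mitochondrial RNase P, which cuts at the 5′ ends of transfer RNAs, rose by 0.59 (SE 0.13, limma adjusted p = 0.011), and Tfb2m, the initiation factor of the mitochondrial RNA polymerase, by 0.49 (SE 0.15, limma adjusted p = 0.038).

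The genes that fell included Supv3l1, the helicase of the mitochondrial RNA degradosome, which decreased by 0.84 (SE 0.17, limma adjusted p = 0.00714), and Esrra, a nuclear receptor for genes of oxidative metabolism, which decreased by 0.69 (SE 0.20, limma adjusted p = 0.0317). Tefm, the elongation factor of the mitochondrial RNA polymerase, decreased by 0.54 (SE 0.16, limma adjusted p = 0.0411). Mrm2, a methyltransferase for the 16S ribosomal RNA, decreased by 0.55 (SE 0.14, limma adjusted p = 0.0211), and Fastkd2, an RNA-binding protein needed for the same RNA, by 0.51 (SE 0.16, limma adjusted p = 0.0471). In the other 4 contrasts 0 of the 44 passed by limma, where 0.00724% to 1.22% of all genes did. The median of the list was -0.15 for CDDP against Saline, beside -0.00 over all genes.

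The nuclear-encoded partners of the mitochondrial subunits showed 14 genes lower and 0 higher among 78 tested for CDDP against Saline (17.9% lower, beside 10.4% of all genes lower and 8.52% higher), with a median of -0.18. The other 4 contrasts had 0 of the 78 called, where 0.00724% to 1.22% of all genes were. Ndufc2 of complex I decreased by 0.66 (SE 0.12, limma adjusted p = 0.00495) and Uqcrfs1, the Rieske protein of complex III, by 0.67 (SE 0.14, limma adjusted p = 0.00831). Beside the -0.18 of this list, the 13 mitochondrial members had a median of -0.01, with mt-Nd2 lowest at -0.71.

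Markers of cell types moved in the same comparison of CDDP with Saline. Of 10 ventricular cardiomyocyte markers, 2 were lower and 1 higher by limma, with a median of -0.35, and their summed level was 48920 to 67038 TPM in Saline and 36654 to 53659 TPM in CDDP hearts. All 5 red blood cell markers, 4 of 6 fibroblast, 3 of 4 endothelial and 3 of 4 macrophage markers were lower and 0 higher. Of all genes, 10.4% were lower and 8.52% higher. The 1 brown fat marker tested was higher. Of 4 atrial, 3 white fat and 2 skeletal muscle markers tested 0 passed, with a median of 3.03 for the atrial markers. Summed endothelial markers were 347 to 439 TPM in Saline and 250 to 309 TPM in CDDP hearts, and summed macrophage markers 231 to 304 TPM and 60.4 to 142 TPM. Summed fibroblast markers overlapped, at 817 to 1964 TPM and 975 to 2081 TPM. The part of these markers in the changes of the nuclear genes was not tested.

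Among the nuclear genes whose level followed the mitochondrial share most closely over the 12 hearts were Strit1 (Pearson r = 0.77 of log2 values), Gm31663 (0.77) and Plbd1 (0.76), beside MSTRG.4998 (0.77), a locus assembled by the authors. They come from the top of 13795 genes ranked on 12 hearts that share their scaling, and are given as a description. MSTRG.4998 and MSTRG.17286 carry the name of a mitochondrial protein in the annotation deposited with the values, at means of 952 and 285 TPM, and have no position here.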

How the data were processed

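RNA-seq of cardiac tissues from 12 hearts was analysed, with groups taken from the sample titles. A TPM value for every gene in every heart was deposited, together with gene lengths and 4 columns of group means, which were not used. The submitters' processing notes name fastp, HISAT and RSEM and the build GRCm38.p5, without versions or roles. How reads with several matches were placed is not given in the sources used here. Columns summed to between 999999 and 1000001, and the depth is unknown. Nothing in the labels ties the same number in different groups to 1 litter, and the p-values measure the spread between these hearts.

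Values were taken as log2(TPM + 1), which understates the change of low genes, and the 13815 genes that reached a TPM of 1 in 3 or more hearts were fitted with limma 3.58.1 (R 4.3.3) in 1 model of the 12 hearts with 8 residual degrees of freedom, two-sided, with Benjamini-Hochberg adjustment and a threshold of 0.05. The script was tested on simulated data. Shares were compared by exact permutation tests. Mitochondrial transcripts of GENCODE M21 (GRCm38, which may differ from the authors' annotation) were searched against all its transcripts with blastn 2.17.0. All 37 members are accounted for. Nuclear genes were named where they passed, up to 5 per direction and list, with the 5 genes most correlated with the mitochondrial share, of which 1 is not reported here. Fold changes of single members are given where the unadjusted p was under 0.1 and at the ends of a range. The members and lists were chosen with earlier results of these data known. The fits were repeated with 0.1 added to TPM, without the filter or with one at 5 TPM, on the compared groups only, after scaling by the median of ratios, to the nuclear total or by quantiles, with eBayes without trend, with arrayWeights, with the replicate number as a block and without each heart in turn. Shares were also computed from protein genes only and from a total without hemoglobin genes. Counting in the nuclear copies and weighting by length were added after the values were seen. The figures used matplotlib 3.10.9 (Python 3.11.15).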

Additional observations from a re-analysis of the deposited data

Results flagged for a closer look

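Complex III, that is mt-Cytb, moved in opposite directions with cisplatin in the 2 genotypes in its share of the mitochondrial TPM. All 3 CDDP hearts lay above the Saline mean, by 0.431 percentage points on average, and all 3 STING-/-+CDDP hearts lay below the STING-/- mean, by 0.295 points on average. The difference between these effects was -0.727 points and was not tested for the share. For the level of mt-Cytb the limma interaction was -0.46 (SE 0.37, adjusted p = 0.653), and the wild type value rests on CDDP heart 1, at 2.63% against 1.42% and 1.45%.

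mt-Co3 showed the same kind of opposition in its level. On log2(TPM + 1) all 3 CDDP hearts lay below the Saline mean, with a mean difference of -0.18, and all 3 STING-/-+CDDP hearts lay above the STING-/- mean, with 0.24. The limma interaction was 0.42 (SE 0.21, adjusted p = 0.463) and did not pass.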

How the results depend on the processing

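By limma 0 of 13 members were called in each of the 5 contrasts. The count became 1 (mt-Nd2) for CDDP against Saline with a filter at 5 TPM, with arrayWeights and with the replicate block, and was 0 to 1 with single hearts left out. It became 1 (mt-Rnr1) for STING-/-+CDDP against STING-/- with arrayWeights and with the compared groups only, and was 0 to 1 (mt-Co1) for STING-/-+CDDP against CDDP with single hearts left out. No other setting moved a count. In the first contrast the adjusted p of mt-Nd2 was 0.0461 with that filter, 0.0248 with arrayWeights and 0.0312 with the replicate block. The causes were not tested. The replicate numbers did not pair the hearts. Deviations of same-numbered hearts had correlations of -0.333 to 0.261, over 0.1 in 4 of 18 pairs, and 1 of 12 hearts correlated best with its own number. The numbers thus name samples, and the block was used only here.

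The mitochondrial share for cisplatin within genotype turned to 0.319 points when TPM were weighted by length, and ranged from -0.727 to 0.652 points with single hearts left out. The same ranges were 2.12 to 3.49 points for the knockout within treatment (exact permutation p = 0.035 without Saline heart 3 or STING-/- heart 2), -2.55 to 0.207 for CDDP against Saline, 0.292 to 3.05 for STING-/- against Saline, 2.66 to 5.02 for STING-/-+CDDP against CDDP and -0.177 to 2.17 for STING-/-+CDDP against STING-/-. Within the mitochondrial total, counting the copies unweighted by length gave complex I -1.98 points for cisplatin and 1.44 for the knockout. The replicate block left the ribosomal RNA share at 0.789 points with an exact sign-flip p = 0.0625. Protein genes only turned complex IV under the knockout to 0.0164 points. With single hearts left out, cisplatin ranged from -0.132 to 0.172 points for complex III and from -1.73 to 0.0711 for complex V. The knockout ranged from 1.08 to 1.98 for complex I, from -0.154 to 0.150 for complex III, from -0.639 to 0.602 for complex IV and from -0.0192 to 0.319 for ribosomal RNA.

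Summed with its copy, mt-Nd4l turned to 0.22 for STING-/- against Saline, and scaled in addition to all other genes to 0.27, and to 0.0092 for STING-/-+CDDP against CDDP. Since TPM hold no read counts, depth sets no stated limit here, and with 3 hearts a group the median SE of a log2 fold change was 0.216.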
